A study of Mus musculus with 24 samples.

Results

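The comparison described here set Raptor-deficient against wild-type mouse CD4 T cells after 8 h of stimulation. It held 8 of the 24 samples of the series, taken by their labels: 4 from CD4(cre)Raptor(fl/fl) mice and 4 from WT mice, all at the 8hStimulation time. Naive cells, CD4+ and CD62Lhi, with low CD44 and no CD25, had been sorted from spleen and peripheral lymph nodes, and both genotypes received plate-bound anti-CD3 and anti-CD28 for the whole 8 h. The wild-type label also gives the strain C57BL/6, and no strain is given for the Raptor-deficient mice. Cre driven by the Cd4 promoter acts in developing thymocytes, before T cells become naive cells, and in the precursors of CD8 T cells too. How completely the floxed Raptor sequence was lost in these samples was not tested. An input of 20 ng RNA was amplified for every Affymetrix array. Whether a replicate is its own mouse is not given in the labels, so p-values measure the spread between these arrays alone, and some of that spread may be technical. Arrays carry no read depth, and their number limits the precision.

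Raptor, encoded by Rptor, is the subunit that recruits substrates to the kinase complex mTORC1. This complex senses growth factors, amino acids and energy, and when active it drives protein, lipid and nucleotide synthesis and restrains autophagy. In T cells it is switched on by the antigen receptor and CD28, and naive cells need it to grow and to leave quiescence. Its partner complex mTORC2 holds Rictor in place of Raptor.

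The arrays gave log2 intensities, so a difference of 1 is 2-fold, and every difference here is Raptor-deficient minus wild type. The genotypes separated on the first principal component of the 8 arrays, which held 45.3% of the variance: Raptor-deficient arrays lay between 12.68 and 18.63, and wild-type arrays between -20.73 and -10.94. Within a genotype, arrays correlated across genes with a Pearson r of at least 0.9917. Wild-type replicate 1 stood farthest from its group, with an SD of 0.229 against the mean of the other 3, where the other 7 arrays had 0.167 to 0.191, and it lay alone at 21.14 on the second component, which held 15.8%. Markers of CD4 alpha beta T cells were bright on all arrays, with Cd3e, Cd3d, Cd4 and Lat among the 11 measured. B cell, myeloid and red cell markers also moved between the genotypes, and their values close this account. In bulk RNA fewer cells of a type and less RNA per cell cannot be told apart.

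Rptor, the gene the recombinase targets, read 6.41, 6.27, 6.50 and 6.79 in the Raptor-deficient samples, against 7.49, 7.51, 7.57 and 7.46 in the wild-type ones. All Raptor-deficient arrays lay under all wild-type arrays, and the difference was -1.01 (95% interval -1.24 to -0.79, adjusted p = 7.45e-05, limma), a 2.02-fold lower level. A second, dimmer probe set differed by -0.66. The sources used here do not say which exon is removed or whether these probes lie in it, so what the remaining signal measures is not known. Of the 40 measured genes nearest to Rptor on its chromosome, 20 on each side, 4 were called, 1 higher and 3 lower. Over all genes 14.8% were called, 4.5% higher and 10.3% lower. The other subunits did not pass the test: Mtor, the kinase itself, differed by 0.00 (adjusted p = 0.989) and Mlst8, a subunit of both complexes, by 0.08 (adjusted p = 0.671). Rictor differed by 0.39 (adjusted p = 0.0579), and passed in 9 of 17 alternative fits, with adjusted p from 0.018 to 0.0397 in those. Its other probe sets were higher by 0.229 to 0.67, and those at 0.388 and 0.67 passed.

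Across 17097 genes, 2536 (14.8%) were called at an adjusted p under 0.05. Of these, 770 (4.5% of genes) were higher and 1766 (10.3%) were lower in Raptor-deficient cells. Most differences were small: 583 of the higher and 1330 of the lower genes changed less than 1.5-fold, and 27 higher (0.158%) and 53 lower (0.31%) genes reached 2-fold, together 80 (0.468%). The median over all genes was 0.012, and the 4 arrays of each genotype did not overlap in 3272 genes (19.1%). Calls in the lower direction lay mostly among bright genes, with 374 higher and 1131 lower calls among the 4274 brightest and 45 higher and 21 lower among the 4275 dimmest, and the medians of those sets were -0.091 and 0.027. The split also depended on the scaling: 30.4% of called genes were higher as deposited, 24.1% after each array was centred on its median (635 higher, 2004 lower), and 45.2% after cyclic loess (1088 higher, 1317 lower). When 1 array at a time was left out, 397 of the higher (2.32% of genes tested) and 1231 of the lower genes (7.2%) kept their call in all 8 fits, and such calls are described below as held.

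**Figure D1:**
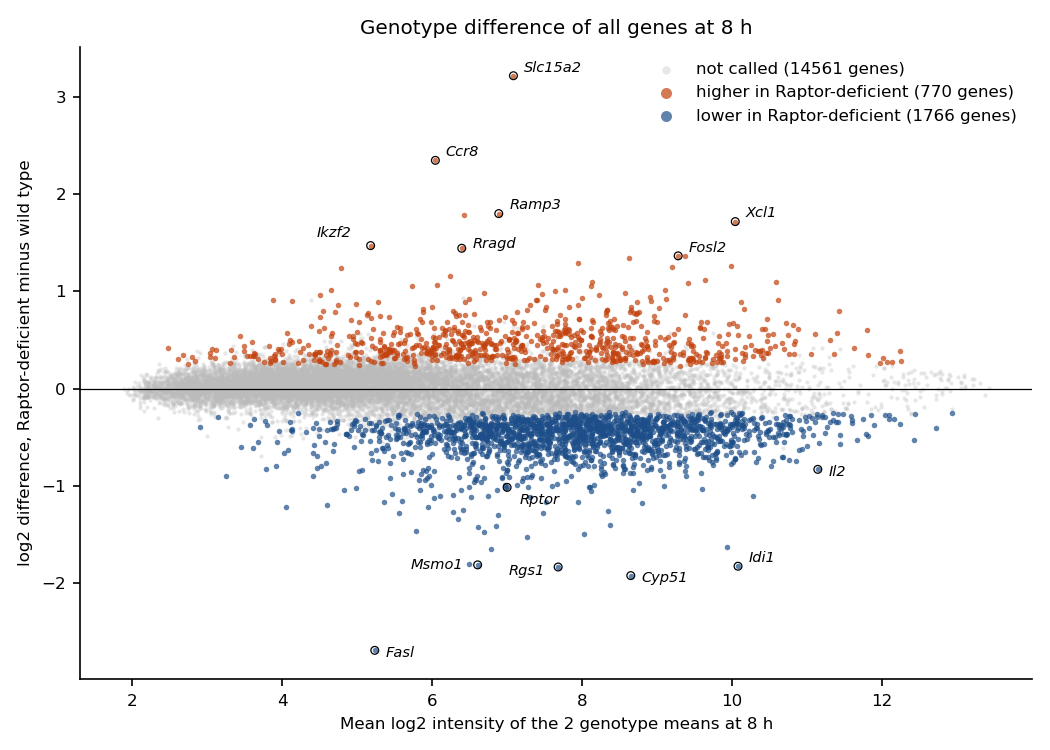
Each point is a gene, with its mean log2 intensity at 8 h on the x axis and its log2 difference, Raptor-deficient minus wild type, on the y axis; orange points were called higher (770), blue points lower (1766) and grey points were not called. Fasl, Cyp51, Rgs1 and Idi1 lie lowest among the labelled genes, Slc15a2 and Ccr8 highest, and blue points are dense above a mean level of 7.34, where the 4274 brightest genes begin.

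**Figure D2:**
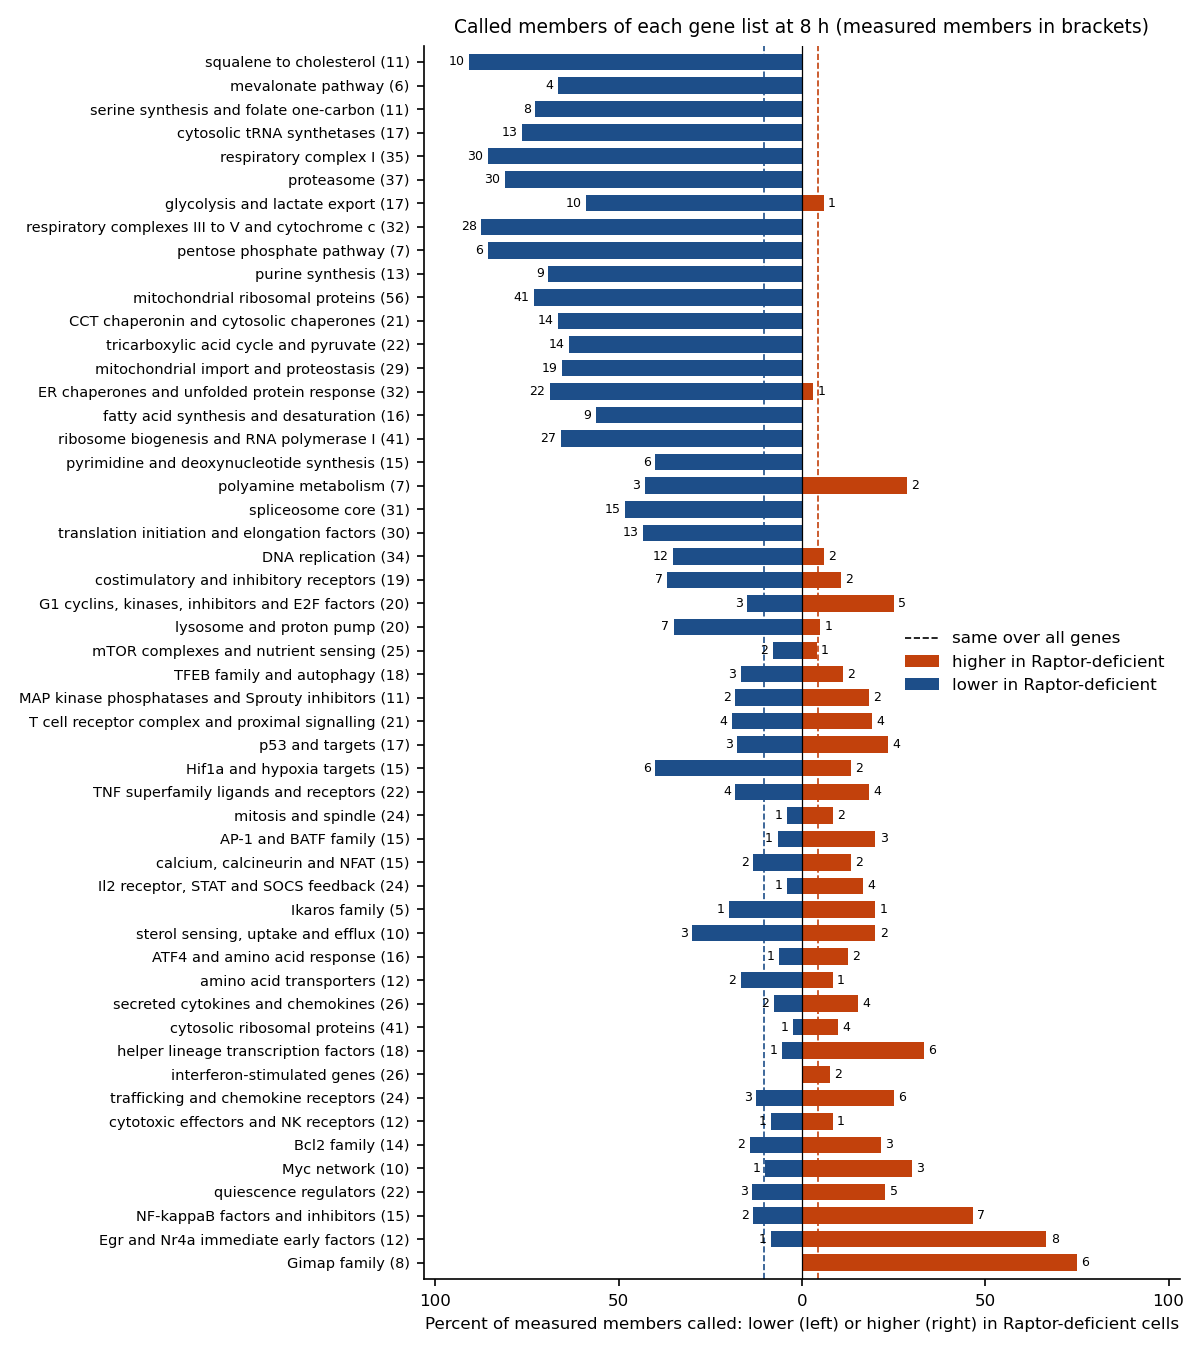
Percent of measured members called lower (blue bars, to the left) and higher (orange bars, to the right) in Raptor-deficient cells at 8 h for each gene list, with the number called at the end of each bar, lists ordered by their median difference and dashed lines at the shares over all genes (10.3% lower, 4.5% higher). The mevalonate, squalene to cholesterol, mitochondrial ribosome, proteasome and tRNA synthetase lists reach far past the blue line with no orange bar, and the Gimap, Egr and Nr4a, and NF-kappaB lists reach past the orange line. The dashed lines do not account for brightness: among the 4274 brightest genes 1131 were called lower and 374 higher.

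The 15 largest rises joined receptors, a chemokine and transcription factors. Ccr8, a chemokine receptor of skin-homing and type 2 helper cells, read 7.37, 7.10, 7.52 and 6.88 in Raptor-deficient samples, against 5.08, 4.88, 4.65 and 4.87 in wild-type samples, a 5.09-fold higher level (adjusted p = 1.04e-06). Its wild-type values lay under the median of all values, 5.225, so this fold is that of the measured intensities. Xcl1, the chemokine lymphotactin, read 10.79, 11.04, 11.03 and 10.74 in Raptor-deficient cells, against 9.26, 9.23, 9.21 and 9.04 in wild type, 3.29-fold higher (adjusted p = 1.04e-06). Ramp3, a partner protein of calcitonin-family receptors, was 3.48-fold higher, with 7.59 to 7.94 in Raptor-deficient cells, against 5.70 to 6.27 in wild type. Both pairs of ranges were well apart.

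Transcription factors were a further group among these rises. Ikzf2, the Ikaros-family factor Helios, read 6.13, 5.84, 6.13 and 5.56 in Raptor-deficient cells, against 4.58, 4.11, 4.53 and 4.56 in wild type, 2.77-fold higher (adjusted p = 4.43e-05). As for Ccr8, the wild-type values lay under the median of all values, and the fold is that of the measured intensities. Fosl2, a Fos-family AP-1 subunit, was 2.58-fold higher at 9.80 to 10.15 in Raptor-deficient cells, against 8.42 to 8.70 in wild type. Nr4a2, an orphan nuclear receptor induced by the antigen receptor, was 2.4-fold higher at 10.41 to 10.74 in Raptor-deficient cells, against 9.20 to 9.47 in wild type. Some of its probe sets did not pass, with 0.145 and 0.057. Rora, the nuclear receptor RORalpha, was 2.23-fold higher at 6.63 to 7.09 in Raptor-deficient cells, against 4.82 to 6.02 in wild type, where wild-type replicate 3 was the lowest array. Of its 5 probe sets 2 did not pass, with 0.24 and -0.07. Rragd, a Rag GTPase that carries amino acid signals to mTORC1 at the lysosome, was 2.72-fold higher (6.83 to 7.55 in Raptor-deficient cells, against 5.53 to 5.75 in wild type). Dusp4, a phosphatase of MAP kinases, was 2.45-fold higher (8.37 to 8.70 in Raptor-deficient cells, against 6.95 to 7.51 in wild type), and Neat1, the long RNA of paraspeckles, 2.54-fold (9.14 to 9.56 in Raptor-deficient cells, against 7.83 to 8.13 in wild type). The remaining rises were Rnf157, a ubiquitin ligase, Frat2, a regulator of Wnt signalling, Map2, a microtubule protein, and Igkj1, a joining segment of the immunoglobulin kappa locus, by 1.36, 1.25, 1.24 and 1.78 on the log2 scale.

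Slc15a2, a proton-coupled peptide transporter, had the largest difference of these genes, 3.22, but wild-type samples did not resemble each other. It read 8.23, 9.73, 8.84 and 7.97 in Raptor-deficient samples, against 3.44, 7.51, 3.46 and 7.49 in wild-type samples, so replicates 1 and 3 lay about 4 units under replicates 2 and 4. The groups still did not overlap (adjusted p = 0.0226). The call was lost without wild-type replicate 1 (0.0504), wild-type replicate 3 (0.0616) or Raptor-deficient replicate 2 (0.0696), and with an intensity trend and robust prior (0.147). The 2 other probe sets differed by 0.24 and 0.25 without passing, and the mean of all probe sets differed by 1.23 (adjusted p = 0.0247).

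Among the 15 largest falls, 6 were enzymes of sterol synthesis, described next. Fasl, the death ligand of activated T cells, fell most: it read 4.26, 3.71, 3.72 and 3.87 in Raptor-deficient cells, against 6.56, 6.92, 6.46 and 6.37 in wild type, 6.45-fold lower (adjusted p = 6.82e-07), with Raptor-deficient values under the median of all values. Rgs1, which dampens chemokine receptor signalling, read 6.77, 6.77, 6.86 and 6.66 in Raptor-deficient cells, against 8.34, 8.69, 8.67 and 8.69 in wild type, 3.56-fold lower (adjusted p = 6.82e-07). F2r, the thrombin receptor, was 3.49-fold lower at 5.25 to 5.96 in Raptor-deficient cells, against 7.28 to 7.60 in wild type. Chst2, a sulfotransferase of sugar chains, was 3.08-fold lower, and Cks2, a partner of cyclin-dependent kinases, 2.81-fold. A second, dimmer probe set of Chst2 differed by -0.14 without passing. Map3k5, the stress kinase ASK1, was 2.66-fold lower (6.01 to 6.24 in Raptor-deficient cells, against 7.41 to 7.65 in wild type). Atxn1, a transcriptional regulator, Nefh, a neurofilament protein, and Acot7, an acyl-CoA thioesterase, fell by 1.47, 1.43 and 1.40 on the log2 scale. In none of these 15 genes did the genotypes overlap, which the rule required.

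**Figure D3:**
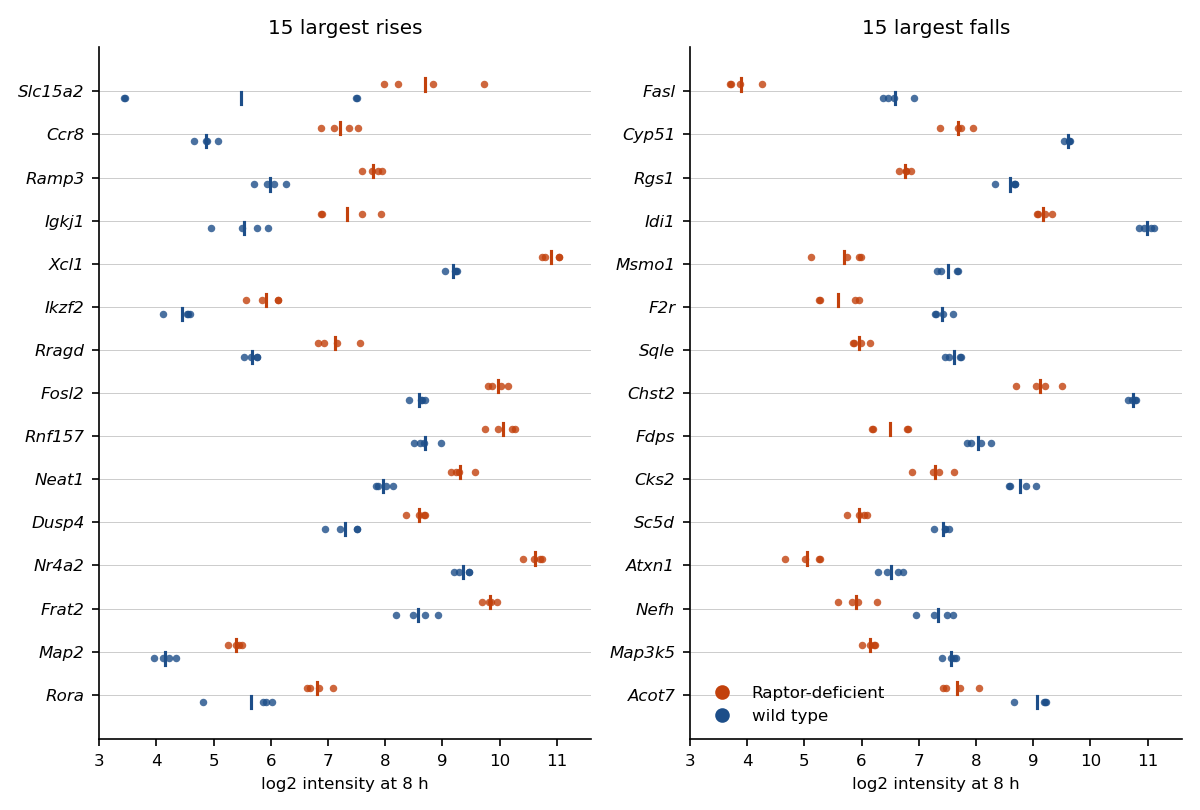
Every array's log2 intensity (x axis) for the 15 largest rises (left panel) and 15 largest falls (right panel), with Raptor-deficient arrays in orange above wild-type arrays in blue; short bars are means of 4. The groups stand apart in every row, and only Slc15a2 has wild-type arrays in separate pairs, near 3.44 and 7.51.

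Sterol synthesis held the lowest medians of the 52 pathway lists at this time. Cells build cholesterol from acetyl-CoA through mevalonate, isoprenoids and squalene, and the transcription factor SREBP-2, encoded by Srebf2, switches these enzymes on together when sterols are short. Of 6 measured mevalonate-pathway genes 4 were lower and 0 higher (median -0.743), and of 11 genes from squalene to cholesterol 10 were lower and 0 higher (median -1.217). All 10 and 3 of the 4 calls held. Several of these genes were already prominent in earlier results of the same data, so the list is not independent evidence of its direction.

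The promoters of these enzymes are shown because the genes moved together. Windows of 250 bases before to 50 after the gene start, from RefSeq in GRCm38.p6, were found for 14 of the 17 enzymes. In 1 or more windows of each of the 14 a CCAAT box (the letters CCAAT, either strand), a site bound by the factor NF-Y, was present, against 42.3% of the 13605 tested genes with a window and 42.6% of those among the brightest genes. The sterol regulatory element in the form TCACNCCAC, searched on both strands, was in 1 of the 14, Hmgcs1, against 1.5% of tested genes. The enzymes with the smallest p that have a window were Idi1 at chr13:8885356-8885655 (plus strand), Cyp51 at chr5:4104648-4104947 (minus strand) and Sc5d at chr9:42264251-42264550 (minus strand), and Hmgcs1 lay at chr13:119690101-119690400 (plus strand). Each is printed in the direction of the gene, with CCAAT boxes in capitals, which read ATTGG where the box is on the opposite strand, and, in Hmgcs1, the sterol element TCACCCCAC as well.
Idi1: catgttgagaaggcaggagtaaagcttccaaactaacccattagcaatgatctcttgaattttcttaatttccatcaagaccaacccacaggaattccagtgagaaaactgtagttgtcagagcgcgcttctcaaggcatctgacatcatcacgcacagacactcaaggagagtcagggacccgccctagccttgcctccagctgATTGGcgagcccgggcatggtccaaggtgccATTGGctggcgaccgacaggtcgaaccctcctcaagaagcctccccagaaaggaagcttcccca
Cyp51: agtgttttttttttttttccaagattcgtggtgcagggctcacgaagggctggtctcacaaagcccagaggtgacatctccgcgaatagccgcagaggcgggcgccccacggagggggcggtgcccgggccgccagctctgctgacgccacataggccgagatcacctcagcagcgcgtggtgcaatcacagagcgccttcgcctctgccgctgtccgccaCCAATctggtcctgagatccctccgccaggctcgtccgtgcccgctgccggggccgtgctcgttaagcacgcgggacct
Sc5d: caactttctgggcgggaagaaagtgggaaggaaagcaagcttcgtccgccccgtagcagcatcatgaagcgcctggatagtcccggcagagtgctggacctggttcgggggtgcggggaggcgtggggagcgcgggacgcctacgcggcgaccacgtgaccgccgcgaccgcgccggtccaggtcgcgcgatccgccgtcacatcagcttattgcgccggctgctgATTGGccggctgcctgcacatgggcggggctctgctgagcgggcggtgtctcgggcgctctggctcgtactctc
Hmgcs1: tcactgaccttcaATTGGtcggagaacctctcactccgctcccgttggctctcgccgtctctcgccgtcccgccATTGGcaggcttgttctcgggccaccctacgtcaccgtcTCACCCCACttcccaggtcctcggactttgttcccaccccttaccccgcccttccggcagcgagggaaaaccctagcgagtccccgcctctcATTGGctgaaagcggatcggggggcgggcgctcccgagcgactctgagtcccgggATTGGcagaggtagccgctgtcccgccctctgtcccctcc

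The upper steps of the pathway differed by member. Hmgcs1, the synthase of HMG-CoA, read 4.19, 4.30, 4.35 and 4.32 in Raptor-deficient cells, against 5.17, 4.82, 5.02 and 4.36 in wild type, a dim gene with a difference of -0.55 (adjusted p = 0.0197) whose call was lost without Raptor-deficient replicate 1 (0.0572) or wild-type replicate 3 (0.0599). Mvd, the mevalonate diphosphate decarboxylase, was lower by 0.94 without overlap. Idi1, which isomerises the 5-carbon isoprenoid unit, read 9.06, 9.32, 9.20 and 9.08 in Raptor-deficient cells, against 11.11, 11.06, 10.94 and 10.85 in wild type, 3.54-fold lower (adjusted p = 6.82e-07). Fdps, the farnesyl diphosphate synthase, read 6.82, 6.20, 6.79 and 6.19 in Raptor-deficient cells, against 7.85, 8.26, 8.09 and 7.92 in wild type, 2.88-fold lower. Mvk, the mevalonate kinase (-0.25), and Ggps1, which diverts farnesyl diphosphate to protein prenylation (0.31), did not pass.

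Below squalene the differences ranged from -1.92 to -0.40. Sqle, the squalene epoxidase and a control point of the route, read 6.15, 5.99, 5.86 and 5.85 in Raptor-deficient cells, against 7.53, 7.72, 7.74 and 7.45 in wild type, 3.13-fold lower (adjusted p = 1.38e-06). Cyp51, the lanosterol demethylase, read 7.69, 7.74, 7.95 and 7.37 in Raptor-deficient cells, against 9.62, 9.62, 9.65 and 9.54 in wild type, 3.79-fold lower (adjusted p = 1.04e-06). Msmo1, another enzyme of the route, read 5.99, 5.74, 5.96 and 5.11 in Raptor-deficient cells, against 7.68, 7.67, 7.38 and 7.32 in wild type, 3.51-fold lower. In these enzymes every Raptor-deficient array lay at least 1 unit under every wild-type array. Sc5d and Dhcr7, the last steps before cholesterol, fell by 1.47 and 1.30 on the log2 scale, Lss by 1.22, Nsdhl by 1.21, Fdft1 by 1.12, Hsd17b7 by 1.04 and Ebp by 0.56. Tm7sf2 (-0.40) did not pass.

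Genes that sense and move sterols did not move one way. Insig1, an SREBP target that retains the SREBP complex in the endoplasmic reticulum, read 7.79, 7.78, 7.75 and 7.54 in Raptor-deficient cells, against 9.11, 9.10, 8.92 and 8.76 in wild type, 2.39-fold lower (adjusted p = 1.18e-05). Srebf2 itself fell by 0.54 on the log2 scale, and Stard4, a sterol carrier, by 1.11. Abcg1, which exports cholesterol and is switched on by sterol-sensing LXR receptors, was higher by 0.91, with 7.63 to 7.94 in Raptor-deficient cells, against 6.32 to 7.41 in wild type. A second, dimmer probe set of Abcg1 differed by 0.233 without passing. Mylip, the LXR-induced ligase that degrades lipoprotein receptors, was higher by 0.53, a call lost in 6 of 8 fits with 1 array left out. Of 10 measured genes of this list 3 were lower and 2 higher (median 0.037), and 3 and 1 of the calls held.

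At the other times the medians of both lists lay closer to 0, but 4 of the enzymes, Mvk, Ggps1, Tm7sf2 and Ebp, had a 24 h difference at least as large as that at 8 h. In unstimulated cells 0 of the 17 were called (limma, adjusted p from 0.265 to 0.982, 3 at an unadjusted p under 0.05), where 0.076% of all genes were called higher and 0.228% lower, and the medians were -0.092 and -0.119. At 24 h, 3 mevalonate genes were lower and 1, Ggps1, was higher, and 10 of 11 squalene genes were lower, beside 11.2% of all genes called higher and 16.1% lower, but the medians were -0.259 and -0.482. Tested directly, the 8 h difference was lower than the unstimulated one in 3 mevalonate and 9 squalene genes (2.35% of all genes). The 24 h difference was higher than the 8 h one in 3 and 7 (2.61% of all genes). These tests share the 8 h arrays on which the enzymes stood out. Msmo1 differed by -1.81 at 8 h and by -0.03 at 24 h, a change of 1.78 (adjusted p = 1.98e-05).

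**Figure D4:**
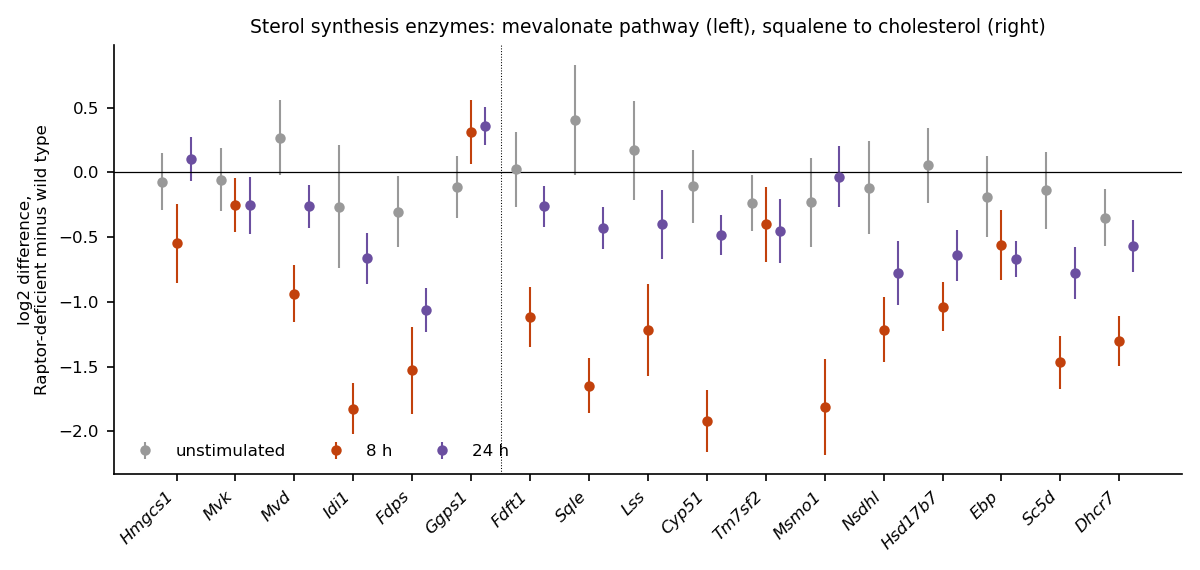
Log2 difference between Raptor-deficient and wild-type cells (y axis) for 17 sterol enzymes, with 95% intervals from limma, in unstimulated cells (grey), at 8 h (orange) and at 24 h (purple), 4 arrays per genotype at each time. Orange points lie lowest for most enzymes, down to -1.92 for Cyp51, grey intervals mostly cross 0, and Ggps1 lies above 0 at 8 h and 24 h.

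Fatty acid synthesis was lower to a smaller degree. Of 16 measured genes 9 were lower and 0 higher (median -0.347), and 6 of these calls held. Fasn, the fatty acid synthase, read 8.37, 8.47, 8.78 and 8.42 in Raptor-deficient cells, against 9.18, 9.31, 9.48 and 9.30 in wild type, 1.75-fold lower (adjusted p = 0.000306). Acsl3 and Acsl5, which activate fatty acids with CoA, fell by 1.04 and 0.75 on the log2 scale, and Elovl1, an elongase of long saturated chains, by 0.78. Acaca and Acly, the carboxylase and lyase that supply the pathway, fell by 0.64 and 0.63. The desaturases Scd1 (0.26) and Fads2 (0.19) did not pass.

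Glycolysis was lower through most of its steps. Of 17 measured genes 10 were lower and 1 higher (median -0.483), and all 11 calls held. Pfkp, a phosphofructokinase, read 8.05, 7.93, 7.69 and 7.59 in Raptor-deficient cells, against 8.72, 8.72, 8.72 and 8.70 in wild type (-0.90, adjusted p = 0.000127). Ldha, which makes lactate, read 10.47, 10.55, 10.53 and 10.38 in Raptor-deficient cells, against 11.12, 11.23, 11.33 and 11.22 in wild type (-0.74, adjusted p = 0.000105). Pgk1 fell by 0.76 on the log2 scale, Slc16a1, a lactate exporter, by 0.82, and Hk2, the inducible hexokinase, by 0.65. The glucose transporters went different ways: Slc2a3 was higher by 0.50, and Slc2a1 differed by -0.32 (adjusted p = 0.069), passing in 4 of 17 alternatives.

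In the pentose phosphate pathway, which yields NADPH and ribose, 6 of 7 genes were lower and 0 higher (median -0.465), and 4 of the calls held. Pgd and Tkt fell by 0.81 and 0.74 on the log2 scale. A second, dimmer probe set of Tkt differed by -0.019 without passing. Hif1a, the oxygen-regulated factor that drives glycolytic genes, read 9.16, 9.13, 9.12 and 8.94 in Raptor-deficient cells, against 10.08, 10.11, 10.28 and 9.98 in wild type, 2.04-fold lower (adjusted p = 2.7e-05). Its list of 15 hypoxia genes did not move one way: 6 were lower, among them Higd1a (-1.04) and Ddit4 (-0.82), and 2 were higher, Bhlhe40 (1.09) and Ndrg1 (0.96). Without wild-type replicate 1, 4 were higher. Other probe sets of Higd1a differed by -0.14 and -0.13 without passing. Bhlhe40, a repressor induced by many stimuli, read 8.87, 8.76, 8.69 and 8.38 in Raptor-deficient cells, against 7.30, 7.63, 7.60 and 7.79 in wild type.

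Mitochondrial genes were lower across most of the lists that describe them. In complex I, which passes electrons from NADH, 30 of 35 measured genes were lower and 0 higher (median -0.498), and 25 of these calls held. In complexes III to V with cytochrome c, 28 of 32 were lower (median -0.478, 26 held). All 67 of these genes had a difference under 0. Ndufc1 read 8.70, 8.81, 8.84 and 8.66 in Raptor-deficient cells, against 9.55, 9.44, 9.60 and 9.66 in wild type, and Uqcrb, of complex III, read 7.55, 7.63, 7.53 and 7.39 in Raptor-deficient cells, against 8.33, 8.27, 8.30 and 8.30 in wild type. The differences were -0.81 (adjusted p = 7.54e-05) and -0.77 (adjusted p = 7.24e-05), and in both genes the groups did not overlap. Cox5a of complex IV and Atp5pb of the ATP synthase fell by 0.70 and 0.71 on the log2 scale.

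The matrix enzymes and the machinery that builds mitochondria were lower as well. In the tricarboxylic acid cycle 14 of 22 genes were lower (median -0.397, 13 held), with Idh3a, Suclg1 and Fh1 down by 0.71, 0.69 and 0.69, while Pdha1 (0.03) and Mdh2 (-0.22) did not pass. Of 56 mitochondrial ribosomal proteins 41 were lower (median -0.419, 35 held), and none was higher. Mrps25, of the small subunit, read 7.42, 7.32, 7.41 and 7.44 in Raptor-deficient cells, against 8.17, 8.23, 8.42 and 8.37 in wild type (-0.90, adjusted p = 3.99e-05). Its other probe sets differed by -0.32 and 0.10 without passing. Of 29 import and proteostasis genes 19 were lower, with 14 held and 11 called after cyclic loess, among them Tomm5, an outer membrane import subunit (-0.68), and Hspe1, the matrix chaperonin partner (-0.53).

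Genes of protein turnover and folding followed. The proteasome, which degrades ubiquitin-tagged proteins, had 30 of 37 genes lower and 0 higher (median -0.484, 28 held). Psmd1, a scaffold of its cap, read 8.94, 8.91, 8.95 and 8.83 in Raptor-deficient cells, against 9.59, 9.78, 9.65 and 9.70 in wild type (-0.77, adjusted p = 6.08e-05), and Psmd6 fell by 0.86 on the log2 scale. The interferon-induced catalytic subunits Psmb8 (-0.11), Psmb9 (0.08) and Psmb10 (0.00) did not pass. Among CCT chaperonin subunits and cytosolic chaperones 14 of 21 were lower (median -0.408, 12 held), with Cct5 and Cct6a down by 0.58 and 0.59.

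In the synthesis machinery the members differed by role. Of 17 cytosolic tRNA synthetases, which charge amino acids onto tRNA, 13 were lower and 0 higher (median -0.524, 12 held). Farsb read 7.90, 7.81, 7.98 and 7.78 in Raptor-deficient cells, against 8.55, 8.76, 8.88 and 8.69 in wild type (-0.85, adjusted p = 9.59e-05). Another, dimmer probe set of Farsb differed by -0.175 without passing. For ribosome biogenesis 27 of 41 genes were lower and 0 higher (median -0.328), but 17 were called without wild-type replicate 2, 17 without Raptor-deficient replicate 4 and 14 after cyclic loess. Ubtf, an activator of RNA polymerase I, and Dkc1, the pseudouridine synthase, fell by 0.65 and 0.53. Translation factors had 13 of 30 lower (median -0.194, 8 held), or 6 after cyclic loess.

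The cytosolic ribosomal proteins themselves stood apart from these. Their mRNAs are known targets of mTORC1 in translation, which arrays of total RNA do not read. Of 41 measured, 1 was lower and 4 were higher, and the median was 0.094. Rpl14 was the lower gene (7.53 to 7.68 in Raptor-deficient cells, against 7.92 to 8.37 in wild type), and its call held. None of the 4 higher calls held: Rps19 read 12.04, 12.02, 11.86 and 12.00 in Raptor-deficient cells, against 11.82, 11.53, 11.55 and 11.64 in wild type (0.34, adjusted p = 0.0194). Their count was 0 without wild-type replicate 2, wild-type replicate 3 or Raptor-deficient replicate 4, 1 without Raptor-deficient replicate 2, and 2 without Raptor-deficient replicate 1 or wild-type replicate 4, but 17 with an intensity trend and robust prior. Many of these genes have near-identical processed copies, so their probe sets are uncertain.

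Genes of the endoplasmic reticulum that fold secreted proteins were also lower. Of 32 measured 22 were lower and 1 higher (median -0.349), and 18 and 1 of the calls held. Sdf2l1, a cochaperone of the reticulum, read 6.92, 6.76, 7.04 and 6.63 in Raptor-deficient cells, against 8.13, 8.07, 8.30 and 7.97 in wild type, 2.43-fold lower (adjusted p = 1.76e-05). Creld2, a disulfide isomerase, read 7.60, 7.62, 7.62 and 7.58 in Raptor-deficient cells, against 8.39, 8.68, 8.76 and 8.63 in wild type, 2.02-fold lower (adjusted p = 2.97e-05). Xbp1, a transcription factor of the unfolded protein response, and Calr, the calcium-binding chaperone calreticulin, fell by 0.88 and 0.75, and Hspa5, the central chaperone BiP, by 0.34. The exception was Dnajb9, a cochaperone that turns off the sensor IRE1, which was higher by 0.61.

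Promoters of this list are shown for a response element that part of the list holds. The ERSE, spelled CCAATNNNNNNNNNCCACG, a CCAAT box and CCACG at a fixed spacing, and searched on both strands, lay in the windows of 9 of 24 genes and of 7 of the 16 called lower, against 0.147% of tested genes. Every ERSE also holds a CCAAT box. The genes called lower with the smallest p whose windows hold it were Creld2 at chr15:88819396-88819695 (plus strand) and Calr at chr8:84846882-84847181 (minus strand) in GRCm38.p6, where the ERSE, here on the opposite strand in both, is in capitals.
Creld2: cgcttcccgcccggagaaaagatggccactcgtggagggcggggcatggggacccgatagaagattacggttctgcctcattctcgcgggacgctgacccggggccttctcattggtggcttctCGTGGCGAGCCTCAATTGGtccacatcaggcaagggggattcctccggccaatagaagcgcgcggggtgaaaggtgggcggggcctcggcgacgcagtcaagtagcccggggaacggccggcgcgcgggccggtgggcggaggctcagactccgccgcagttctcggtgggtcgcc
Calr: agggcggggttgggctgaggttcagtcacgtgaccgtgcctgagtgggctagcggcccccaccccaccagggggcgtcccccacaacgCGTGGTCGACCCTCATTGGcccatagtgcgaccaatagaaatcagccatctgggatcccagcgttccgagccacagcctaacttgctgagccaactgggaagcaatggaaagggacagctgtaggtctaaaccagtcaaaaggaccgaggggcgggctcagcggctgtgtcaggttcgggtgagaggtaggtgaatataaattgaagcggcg

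Synthesis of serine, one-carbon units and nucleotides was lower. In serine and folate metabolism 8 of 11 genes were lower and 0 higher (median -0.533, 8 held). Phgdh, which commits glycolytic carbon to serine, read 6.70, 6.65, 6.68 and 6.50 in Raptor-deficient cells, against 7.09, 7.73, 7.40 and 7.39 in wild type (-0.77, adjusted p = 0.00099). Psph, Mthfd1l and Shmt2 fell by 0.75, 0.63 and 0.61 on the log2 scale. Of 13 purine genes 9 were lower (median -0.420, 9 held), led by Gmps (-0.78) and Nme1 (-0.72), and of 15 pyrimidine genes 6 were lower (median -0.310, 5 held), with Dut, which destroys dUTP, down by 0.79 and Cad, the mTORC1-S6 kinase substrate that starts the pathway, by 0.50. Dimmer probe sets of Gmps and Dut differed by -0.135 and -0.123 without passing. Among polyamine genes Azin1, which stabilises ornithine decarboxylase, and Srm, the spermidine synthase, were lower by 0.62 and 0.45, while Odc1, the rate-limiting decarboxylase, was higher by 0.44, a call lost without Raptor-deficient replicate 2.

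The ATF4 response and amino acid transport changed little at 8 h. Of 16 ATF4-linked genes 2 were higher and 1 lower, and Ddit3 alone kept its call with any array left out (8.37 to 8.75 in Raptor-deficient cells, against 7.86 to 8.03 in wild type; 0.59, adjusted p = 0.00122). Atf4 itself differed by -0.24 (adjusted p = 0.0444), lost in all 8 such fits. Of 12 amino acid transporters 2 were lower and 1 higher, and none of these calls held.

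Nutrient sensing and lysosome genes were mixed. Of 25 mTOR and nutrient-sensing genes, Rptor and Akt1 were lower and Slc38a9, an arginine sensor of the lysosome, higher. The Akt1 call was lost without wild-type replicate 4, and the Slc38a9 call in 6 of 8 fits. Among 20 lysosome and proton pump genes 7 were lower and 1 higher (median -0.038; 4 and 0 held), with Ctsz and Ctsb, cathepsins, down by 0.62 and 0.48 and the pump subunit Atp6v1a by 0.49. The higher gene was Mcoln1, a lysosomal calcium channel (0.29), a call lost in 7 of 8 fits, and 4 genes were higher without wild-type replicate 1. Among 18 genes of the TFEB family and autophagy, 3 were lower (1 without wild-type replicate 3 or Raptor-deficient replicate 4) and 2 were higher (4 without wild-type replicate 1), namely Rragd and Mitf, a TFEB relative (0.44).

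Cell cycle genes differed less at 8 h than at 24 h. Of 34 DNA replication genes 12 were lower and 2 higher (median -0.182), and 9 and 1 of the calls held. Mcm6, of the replicative helicase, read 7.24, 7.07, 7.14 and 7.15 in Raptor-deficient cells, against 7.78, 7.97, 7.61 and 7.67 in wild type (-0.61, adjusted p = 0.000802), and Orc1, of the origin recognition complex, was higher by 0.58. Of 24 mitosis genes, 10 of which averaged under the median of all values, 1 was lower and 2, Mad2l1 and Cenpa, were higher, with a median of 0.002. A second probe set of Cenpa differed by -0.095 without passing. The Cenpa call was lost with the mean of all probe sets (limma, adjusted p = 0.328). At 24 h the same lists had 33 of 34 and 24 of 24 genes lower, with medians of -1.222 and -2.409. The 24 h difference was lower than the 8 h one in 29 and 24 of them (4.14% of all genes).

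Among G1 regulators the D cyclins went different ways. Ccnd3 read 8.09, 8.14, 7.97 and 8.19 in Raptor-deficient cells, against 7.58, 7.39, 7.43 and 7.33 in wild type (0.67, adjusted p = 0.000323). Ccnd2 fell by 0.33 and its partner kinase Cdk4 by 0.42. Cdkn1b, the inhibitor p27, was higher by 0.68 (9.70 to 10.10 in Raptor-deficient cells, against 8.70 to 9.74 in wild type, overlapping through wild-type replicate 1), with the call lost without Raptor-deficient replicate 4. The list as a whole had 5 of 20 higher and 3 lower, but 2 higher without Raptor-deficient replicates 1, 2 or 4 or wild-type replicate 3, and 3 without wild-type replicates 2 or 4. Myc, which drives growth after activation, was high and did not pass: it read 11.85, 11.95, 12.17 and 11.86 in Raptor-deficient cells, against 11.56, 11.88, 11.95 and 11.86 in wild type (0.14, adjusted p = 0.441). Of 10 genes of its network 3 were higher and 1 lower. Mnt, an antagonist of Myc, was higher by 0.41 and Mlx, a partner of the related Mondo factors, lower by 0.51, and both calls held. The other higher genes were Mxd1 (0.41), lost without Raptor-deficient replicates 1 or 3, and Mga (0.29), lost in 6 of 8 fits.

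Immediate early genes of the antigen receptor were higher as a group. Of 12 Egr, Nr4a and related genes 8 were higher and 1 lower (median 0.418), and 7 of the 8 held. In unstimulated cells their median was 0.055. Between unstimulated cells and 8 h the genotype difference changed in 0 of the 12, beside 3.21% of all genes. Nr4a1, known as Nur77 and widely used as a reporter of receptor signalling, read 11.06, 11.03, 11.12 and 11.02 in Raptor-deficient cells, against 10.44, 10.36, 10.41 and 10.31 in wild type (0.68, adjusted p = 0.000106). Nr4a3 read 11.76, 11.84, 11.98 and 11.73 in Raptor-deficient cells, against 10.84, 10.92, 11.22 and 11.16 in wild type (0.80, adjusted p = 0.000328). Egr1 read 11.51, 11.43, 11.38 and 11.23 in Raptor-deficient cells, against 10.96, 10.72, 10.83 and 10.78 in wild type (0.56, adjusted p = 0.00108). The groups stood apart in all of these. Egr2 (0.17), as bright as these, and the dimmer Egr3 (0.09) did not pass, and Srf, the serum response factor, was the lower gene (-0.25), a call lost in 7 of 8 fits. Egr2 passed in 2 of 17 alternatives, an intensity trend and robust prior (limma, adjusted p = 0.0207) and cyclic loess (0.027).

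AP-1 subunits diverged from each other. Fosl2, Maff and Junb were higher by 1.37, 0.54 and 0.49, and Fosl1, known as Fra-1, was lower: it read 6.82, 6.75, 7.19 and 6.96 in Raptor-deficient cells, against 7.50, 8.25, 8.25 and 8.38 in wild type (-1.17, adjusted p = 0.000671). The other 11 of 15 did not pass, with Fos at 0.06 and Jun at 0.00. Irf4, which partners BATF in activated T cells, read 11.11, 11.04, 11.21 and 11.06 in Raptor-deficient cells, against 11.31, 11.29, 11.37 and 11.40 in wild type (-0.24, adjusted p = 0.0558), groups that did not overlap, and it passed in 5 of 17 alternatives.

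In the NF-kappaB list 7 of 15 genes were higher and 2 lower (median 0.324), and 5 and 1 of the calls held. In unstimulated cells the median of this list was 0.147. Its genotype difference was higher at 8 h than in unstimulated cells in 1 gene and lower in 1 (0.86% and 2.35% of all genes). Tnfaip3, the ubiquitin-editing inhibitor A20, read 9.80, 9.68, 9.55 and 9.28 in Raptor-deficient cells, against 8.86, 8.74, 8.46 and 8.57 in wild type (0.92, adjusted p = 0.000359). Rel, the subunit c-Rel, was higher by 0.55, and Nfkbiz, an atypical nuclear inhibitor, by 0.46. Nfkbie, the inhibitor IkB-epsilon, was lower by 0.79. Of the MAP kinase phosphatases Dusp4 and Dusp1 were higher, by 1.29 and 0.68, and the feedback inhibitor Spry1 was lower by 0.53.

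Receptor complex genes showed both directions. Zap70, the kinase recruited to the triggered receptor, read 8.26, 8.40, 8.64 and 8.15 in Raptor-deficient cells, against 8.90, 9.10, 8.99 and 9.14 in wild type (-0.67, adjusted p = 0.00124). Ubash3b, a phosphatase that restrains it, fell by 0.65 and Cd3g by 0.39, and 4 of the 21 genes of this list were lower. The 4 higher genes were Txk, Cblb, Lcp2 and Malt1, between 0.32 and 0.62, and none of these calls held. Their count was 1 without Raptor-deficient replicate 1 or wild-type replicates 2 or 3, and 2 without wild-type replicate 1 or Raptor-deficient replicates 2, 3 or 4.

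Of 19 costimulatory and inhibitory receptors 7 were lower and 2 higher (median -0.169), and 5 and 1 of the calls held. Ctla4, the inhibitory receptor for CD80 and CD86, read 6.04, 5.67, 6.15 and 5.07 in Raptor-deficient cells, against 6.90, 6.75, 6.87 and 6.76 in wild type, 2.13-fold lower (adjusted p = 0.00162). Slamf6 read 6.66, 6.59, 6.93 and 6.37 in Raptor-deficient cells, against 7.64, 7.69, 7.48 and 7.70 in wild type (-0.99), and Pdcd1, the receptor PD-1, read 7.72, 7.91, 8.08 and 7.75 in Raptor-deficient cells, against 8.65, 8.63, 8.87 and 8.83 in wild type (-0.88, adjusted p = 0.000139). Cd6 and Cd200 were lower by 0.59 and 0.58. Cd28 itself (-0.32) did not pass, and the ligand genes Cd274 and Cd80 were the higher members, by 0.47 and 0.48.

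Cytokine genes changed selectively. Il2, the growth factor of activated T cells, read 10.31, 10.75, 11.04 and 10.81 in Raptor-deficient cells, against 11.16, 11.52, 11.81 and 11.74 in wild type, 1.78-fold lower without overlap (adjusted p = 0.0041). Lif and Csf2 were higher by 0.86 and 0.76, Csf2 at 5.23 to 5.75 in Raptor-deficient cells, against 4.61 to 4.98 in wild type, near the median of all values. Of 26 genes 4 were higher, all held, and 2 were lower, or 4 without wild-type replicate 1. Ifng (-0.49, adjusted p = 0.106) did not pass and was dim in both genotypes. Among TNF family members Tnfsf11, the ligand RANKL, read 9.41, 9.32, 9.38 and 9.37 in Raptor-deficient cells, against 8.11, 8.40, 8.56 and 8.79 in wild type (0.90), while Lta, Ltb and Cd40lg, the ligand that helps B cells, were lower by 0.65, 0.60 and 0.56 and Tnf differed by -0.10.

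**Figure D5:**
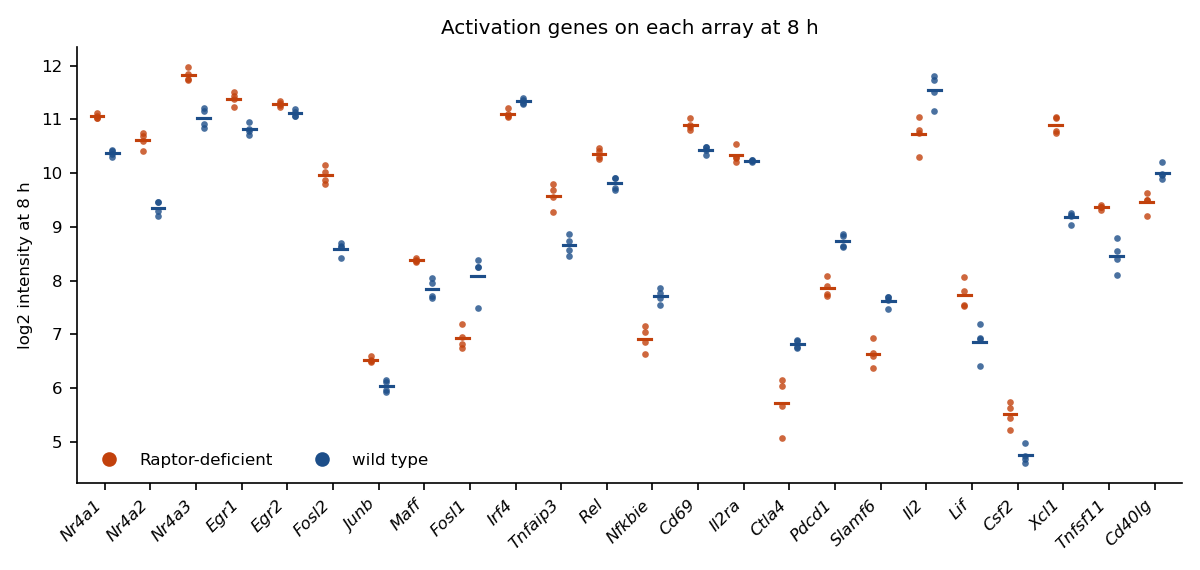
Log2 intensity at 8 h (y axis) of activation genes on each array, with the 4 Raptor-deficient arrays in orange left of the 4 wild-type arrays in blue and means as short bars. The Nr4a genes, Egr1, Fosl2, Tnfaip3, Rel and Xcl1 are higher in Raptor-deficient cells, Fosl1, Nfkbie, Ctla4, Pdcd1, Slamf6 and Il2 lower, and Egr2 and Il2ra lie close together.

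Genes of cytokine response and trafficking went both ways. Il2ra, the IL-2 receptor alpha chain, read 10.29, 10.30, 10.55 and 10.20 in Raptor-deficient cells, against 10.24, 10.22, 10.24 and 10.20 in wild type and did not pass (0.11, adjusted p = 0.46). Stat5a and Stat5b, which carry the IL-2 signal, were higher by 0.36 and 0.61, Ifngr2 by 0.72 and Pim1 by 0.46, and these 4 calls held. They were the higher genes of 24 (median 0.012), and Il2rb, the receptor beta chain, was the lower one (-0.39), a call lost in 6 of 8 fits. Cd69, an early activation marker that also retains cells in lymph nodes, was higher by 0.47 (10.80 to 11.03 in Raptor-deficient cells, against 10.33 to 10.48 in wild type). S1pr1, the exit receptor it opposes, was higher by 0.98, a call lost in 2 of 8 fits. Itgal, the integrin chain of LFA-1, was lower by 0.79. Of 24 trafficking genes 6 were higher and 3 lower, and 4 and 2 held.

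Among 18 helper lineage factors 6 were higher and 1 lower, and 5 of the 6 held. Gata3, the type 2 factor, read 6.54, 6.87, 6.99 and 6.36 in Raptor-deficient cells, against 6.09, 5.96, 5.68 and 6.07 in wild type (0.74, adjusted p = 0.00305). Bcl6, the follicular helper factor, was higher by 0.69, Id2 by 0.71 and Runx1 by 0.58. Tbx21, the type 1 factor T-bet, read 5.57, 5.04, 5.37 and 4.26 in Raptor-deficient cells, against 5.90, 5.98, 5.95 and 4.57 in wild type (-0.54, adjusted p = 0.307). Replicate 4 was the lowest of both genotypes, and without wild-type replicate 4 the difference passed (adjusted p = 0.0313).

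Genes linked with quiescence and lymphocyte maintenance were higher in part. Of 8 Gimap GTPases, expressed in resting lymphocytes, 6 were higher and 0 lower (median 0.566), and 5 held. In unstimulated cells their median was already 0.283, and the genotype difference changed from there to 8 h in 0 of them (3.21% of all genes). Gimap6 read 11.02, 11.12, 10.97 and 11.00 in Raptor-deficient cells, against 10.61, 10.49, 10.40 and 10.39 in wild type (0.55, adjusted p = 0.000732). Satb1, a chromatin organiser of T cells, read 11.28, 11.19, 11.13 and 10.94 in Raptor-deficient cells, against 10.20, 10.22, 9.96 and 9.76 in wild type, 2.14-fold higher (adjusted p = 8.28e-05). Btg1 and Btg2, antiproliferative RNA regulators of resting T cells, were higher by 0.58 and 0.60, and Slfn2 was lower by 0.72.

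Wild-type replicate 1 decided part of the quiescence list. In all, 5 of 22 genes were higher and 3 lower (1 in the fits without wild-type replicates 1, 2 or 3 or Raptor-deficient replicates 1, 3 or 4), and 9 were higher without wild-type replicate 1. Klf2, which sets the homing genes of naive cells, read 9.62, 9.47, 9.25 and 9.45 in Raptor-deficient cells, against 9.52, 8.96, 8.51 and 8.54 in wild type. The difference of 0.57 had an adjusted p of 0.0566 with that array and 0.00128 without it. Foxo1 differed by 0.18 (adjusted p = 0.379).

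Of 31 core spliceosome genes 15 were lower and 0 higher (median -0.255, 11 held), or 9 lower after cyclic loess. Ikzf3, the Ikaros-family factor Aiolos, was lower by 0.79, opposite to Ikzf2. In the Bcl2 family Bcl2 was higher by 0.44 and the proapoptotic Bbc3 by 0.54, and Bid and Bak1 were lower by 0.62 and 0.48. Other probe sets of Bid (-0.35 and -0.256), Bak1 (-0.271) and Bcl2 (0.319) did not pass. Of 26 interferon-stimulated genes Rsad2 (0.87) and Oasl1 (0.33) were higher and 0 lower, and the Oasl1 call was lost in 7 of 8 fits.

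Between times, the comparisons use different arrays. In unstimulated cells 52 genes (0.304%) were called, 13 higher and 39 lower, or between 19 and 60 when 1 array was left out, with 19 to 24 without any of the wild-type replicates and 34 without Raptor-deficient replicate 4. At 24 h 4670 (27.3%) were called. Of the 770 genes higher at 8 h, 10 were called higher and 0 lower in unstimulated cells, and 496 higher and 24 lower at 24 h. Of the 1766 lower at 8 h, 15 were called lower and 0 higher in unstimulated cells, and 1203 lower and 24 higher at 24 h. Tested as a difference of differences, 548 genes (3.21%) changed between unstimulated cells and 8 h (0.86% with a higher difference at 8 h), 291 to 725 with 1 array left out: 291 without wild-type replicate 3, 325 without wild-type replicate 2, 345 without Raptor-deficient replicate 4, and 363 without Raptor-deficient replicate 2 or wild-type replicate 4 of the 8 h arrays. Between 8 h and 24 h 1155 genes (6.76%) changed.

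A few of the 30 genes already differed before stimulation. Rragd was higher by 1.36 (adjusted p = 0.00116), Fosl2 by 1.51 (adjusted p = 0.00115), and Map3k5 was lower by 1.60 (adjusted p = 0.00115) and Atxn1 by 1.33 (adjusted p = 0.0282) in unstimulated cells. Their difference of differences between unstimulated cells and 8 h did not pass, with values from -0.14 to 0.18. Among the largest rises it also did not pass for Slc15a2, Igkj1, Ikzf2, Rnf157, Neat1, Dusp4, Nr4a2 and Rora. For these genes the 8 h difference was thus not shown to differ from the unstimulated one. For Ccr8, Xcl1, Fasl and Rgs1 the unstimulated differences lay between -0.34 and 0.15, and the change to 8 h passed in each. Xcl1 differed by a further 1.85 at 24 h (adjusted p = 1.8e-08), and Ramp3 by 1.21 less than at 8 h (adjusted p = 2.28e-05).

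Markers of other cells differed between the genotypes beside these groups at 8 h. All 13 measured B cell markers had a difference above 0 (median 0.224), and H2-Aa, Cd79a and Pax5 were called higher, or 1 gene without wild-type replicate 3 and without replicate 1 of both genotypes. Their summed intensity was 632 to 897 in Raptor-deficient samples, highest in replicate 1, against 509 to 569 in wild-type samples. Igkj1, one of the largest rises, read 7.92, 7.60, 6.87 and 6.90 in Raptor-deficient cells, against 5.75, 5.49, 5.95 and 4.95 in wild type. All 15 myeloid markers lay above 0 (median 0.159), with sums of 407 to 464 in Raptor-deficient samples, against 326 to 341 in wild-type samples. Of these S100a8, S100a9, Tyrobp and Lyz2 were called higher, or 2 without Raptor-deficient replicates 1 or 2 or wild-type replicates 2 or 3. S100a8, a neutrophil protein, read 5.62, 5.29, 4.71 and 5.04 in Raptor-deficient cells, against 4.01, 4.01, 4.28 and 4.30 in wild type. Of the B cell and myeloid lists 7 and 12 genes averaged under the median of all values. In unstimulated cells their medians were 0.25 and 0.033, with 0 genes called in each. At 24 h the medians were 0.427 and 0.152, with 6 and 1 genes called higher, beside 11.2% of all genes. Between unstimulated cells and 8 h the genotype difference changed in 0 genes of either list.

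Red cell markers summed to 224 to 466 in Raptor-deficient samples, lowest in replicate 4, against 179 to 230 in wild-type samples. Hba-a1, a hemoglobin gene with a near-identical copy, read 7.94, 8.50, 8.23 and 7.15 in Raptor-deficient cells, against 6.65, 7.23, 7.09 and 6.96 in wild type (0.97), the sole called gene of 4 erythroid markers. Cd8a was lower by 0.57. The CD4 alpha beta T cell markers summed to 10700 to 11500 in Raptor-deficient and 12100 to 13300 in wild-type samples, with 4 of 11 lower and 1 higher. Of 6 regulatory T cell markers Ikzf2 was higher and Ctla4 lower, with sums of 1480 to 1860 in Raptor-deficient and 1510 to 1560 in wild-type samples. Dendritic, gamma delta, hepatocyte and fibroblast lists had 0 of 21 genes called by limma, 2 at an unadjusted p under 0.05. The NK and platelet lists had 1 higher gene each, Gzma (0.41) and Itga2b (0.35), and neither call held. The part of these markers in the gene groups above was not tested.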

How the data were processed

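The authors deposited log2 intensities per probe set, for which the submitters' processing notes name RMA and Partek 6.5. Of 45141 probe sets 28898 named 1 gene, and each of 17097 genes was read from its brightest probe set by the 24-array mean. The 8 arrays at 8 h were fitted alone with limma 3.58.1 in R 4.3.3 (lmFit and eBayes, Benjamini-Hochberg adjustment over all genes, called at an adjusted p under 0.05). Unstimulated and 24 h arrays were fitted the same way, and differences between times as interactions. Data were also simulated from the means and spreads of these arrays, with noise drawn separately for each gene. In them 67, 67 and 66 of 17097 genes were changed 1.5-fold, 2-fold and 4-fold. The fit recovered 74.6% of 1.5-fold, 95.5% of 2-fold and 98.5% of 4-fold changes, with 5 false calls. Far fewer genes changed there than were called here, and noise shared between genes was not simulated. Recovery under the conditions of the real arrays was therefore not tested. Members, 52 pathway lists and 12 marker lists were chosen with earlier results of these data known.

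Named were the 15 largest rises and 15 largest falls among called genes whose groups did not overlap and whose higher mean reached 5.225, the median of all values, up to 4 called members of each list with the smallest p, and a fixed set. Genes named without a call, and list members beyond those 4, were chosen after their values were seen. Not all genes of these pathways were analysed here. Alternatives covered the samples in the fit, a replicate block, the mean of all probe sets, a trended robust prior, a filter on dim genes, array weights, median centring, cyclic loess and leaving out arrays.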

Additional observations from a re-analysis of the deposited data

Results flagged for a closer look

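The genotype difference changed with time in many of the 30 genes with the largest differences, tested as an interaction in limma. These genes were chosen on the 8 h arrays, which enter both tests. The 8 h difference minus the unstimulated one was 2.29 for Ccr8, 1.39 for Ramp3, 1.57 for Xcl1, 1.22 for Frat2 and 1.26 for Map2. Among sterol enzymes it was -1.81 for Cyp51, -1.56 for Idi1, -1.58 for Msmo1, -2.05 for Sqle, -1.22 for Fdps and -1.33 for Sc5d. It was -2.35 for Fasl, -1.76 for Rgs1, -1.43 for F2r, -1.60 for Chst2, -1.02 for Cks2, -1.25 for Nefh and -1.40 for Acot7.

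The 24 h difference minus the 8 h one was 1.85 for Xcl1, -1.21 for Ramp3, -0.54 for Fosl2 and -0.62 for Map2. Sterol enzymes again formed a group, with 1.44 for Cyp51, 1.16 for Idi1, 1.78 for Msmo1, 1.22 for Sqle and 0.69 for Sc5d. Fasl had 1.40, Atxn1 0.60, Map3k5 1.04 and Acot7 1.09.

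Among 216 genes with printed values, 19 of 432 groups of 4 arrays (4.4%) held an array far from the other 3, where chance gives about 1 in 20. Wild-type replicate 1 stood low for Acot7 (8.66), Fh1 (8.11), Fosl1 (7.50) and Rgs1 (8.34) and high for Cd8a (6.45). Wild-type replicate 2 stood high for Id2 (6.90) and low for Ikzf2 (4.11), replicate 3 high for Mnt (8.73) and low for Rora (4.82), and replicate 4 low for Tbx21 (4.57). Raptor-deficient replicate 1 stood low for Ctsb (7.99) and high for Xbp1 (8.06), and replicate 2 high for Oasl1 (4.01). Raptor-deficient replicate 3 stood high for Cct6a (10.82), Itgal (9.18) and Lta (7.99), and replicate 4 low for Hif1a (8.94), Insig1 (7.54) and Suclg1 (6.88).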

How the results depend on the processing

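The count at 8 h stayed between 1898 (without wild-type replicate 2) and 2910 (dim genes filtered out), against 2536 as reported, and the count at 2-fold or more between 62 and 95. No named gene reversed, and 184 of 240 kept the same call under every alternative that tested them, 17 or, for genes that the filter on dim genes removed, 16. With all 24 arrays in the fit 332 genes were called in unstimulated cells and 1076 for the 8 h minus unstimulated difference, against 52 and 548. Leaving out 1 array gave 19 to 60 and 291 to 725, and the cause was not tested. Without replicate 1 of both genotypes, chosen after seeing the data, 2314 genes were called at 8 h (719 higher, 1595 lower). Same-numbered arrays of both genotypes correlated in their deviations with r of 0.196, 0.016, 0.236 and 0.062. Differently numbered arrays had r from -0.278 to 0.102. Whether the numbers pair the samples was not tested, and the main fit did not use them. The replicate block gave 2742 calls (898 higher, 1844 lower) and brought Tbx21 to an adjusted p of 0.00912 (limma). Signal limits the dim genes: of the 4275 dimmest, 45 were called higher and 21 lower.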
